A study of Caenorhabditis elegans with 6 samples.

Results

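The body shape collagens described here are cuticle collagen genes of the nematode Caenorhabditis elegans named for the Dpy (short and fat), Rol (rolling) and Sqt (squat) shapes of their mutants. They were chosen by gene name, as probe sets whose symbol in the platform annotation was dpy-2, dpy-3, dpy-7, dpy-8, dpy-10, dpy-13, dpy-17, rol-6, sqt-1 or sqt-3. Of these 10 genes, 9 were measured, by 11 of the 22625 probe sets of the array, and dpy-10 was not analysed here. All 11 probe sets passed the filter on dim signals described below, as did 9113 of the 17118 genes read by a probe set of their own. The study compared hlh-30(tm1978) worms, which carry the tm1978 allele of the transcription factor gene hlh-30, with the wild-type strain N2, on 3 Affymetrix arrays of each genotype. All worms were grown at 20 °C, and each array held whole-animal RNA in which embryos, L1 larvae and L2 larvae of 1 biological replicate had been mixed. A value is therefore an average over stages and tissues, and fewer cells of a type, less RNA per cell and another mix of stages cannot be told apart. The labels do not say whether the mutant was outcrossed, so other differences between the strains cannot be told apart from hlh-30.

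The worm cuticle is a collagen-rich coat secreted by the epidermis and the seam cells, and a new one is made late in embryogenesis and before each moult. Each collagen gene is transcribed in a pulse at its own time in this cycle, so a sample's collagen mRNA depends on where its animals stood in it. The furrow collagens, to which dpy-2, dpy-3, dpy-7, dpy-8 and dpy-10 belong, make up the circumferential furrows that ring the body. Worms that lack one of them are short, lose the furrows and switch on osmotic, detoxification and antimicrobial genes. Of the other members, dpy-13 encodes a collagen of the ridges between furrows, sqt-1 and rol-6 encode collagens whose mutations interact and can make worms roll, and sqt-3 and dpy-17 encode collagens that depend on the same trimming protease, DPY-31. HLH-30 is the worm counterpart of TFEB, known for activating lysosomal and autophagy genes.

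Some facts of the arrays bear on the collagens. At each of the 3 hlh-30 probe sets the highest mutant array lay under the lowest wild-type array, with log2 changes between −1.88 and −2.28. The array of wild type 3 deviated from its group mean by 0.344 log2 units (root mean square over the probe sets tested) and that of mutant 3 by 0.451, against 0.200 to 0.261 for the other 4 arrays. Epidermal markers were present: 7 of 8 measured passed the filter, vab-19 did not, and the log2 of their summed level ran from 13.37 to 13.84 in the mutants and from 13.85 to 13.90 in wild type. All 5 seam cell markers measured passed, with summed levels of 13.62 to 13.80 in the mutants and 13.66 to 13.92 in wild type. Of 12 body wall muscle markers, 11 were at their highest on wild type 3. Their summed level was 16.69 to 16.85 in the mutants and 17.13 to 17.45 in wild type. Also at their highest on wild type 3 were 7 of 9 neuron markers and 5 of 10 intestinal markers tested. Early embryo and maternal markers were summed at 10.80, 10.81 and 13.29 on mutants 1, 2 and 3 and at 12.30, 11.91 and 11.20 on wild types 1, 2 and 3, and mex-1, oma-1, egg-1 and chs-1 failed the filter.

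The genotype comparison asked whether the collagens differ when hlh-30 is mutated. None of the 9 genes was called in limma at an adjusted p under 0.05, where 0.143% of all genes tested were, and none had an unadjusted p under 0.05, against 8.59% of all genes. The smallest adjusted p among them was 0.576. The fitted change was above 0 for 8 of 9, against 46.2% of all genes, and the median log2 change was 0.34, beside −0.010 over all genes tested. For dpy-2, dpy-7 and sqt-1 every mutant array lay above every wild-type array, a pattern shown by 3.76% of all genes. That pattern by definition puts every mutant above wild types 1 and 2, which 7.51% of all genes showed. By the probe set that represents each gene, no other member had every mutant above those arrays, though the dimmer probe set of sqt-3 did. Wild type 3 weighed on these values: 7 of the 9 were at their lowest on it, as were 26.3% of all genes. Without that array the median over the 9 was 0.051. For any 1 gene, exact permutation of the 6 arrays could not reach a p below 0.1.

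**Figure D1:**
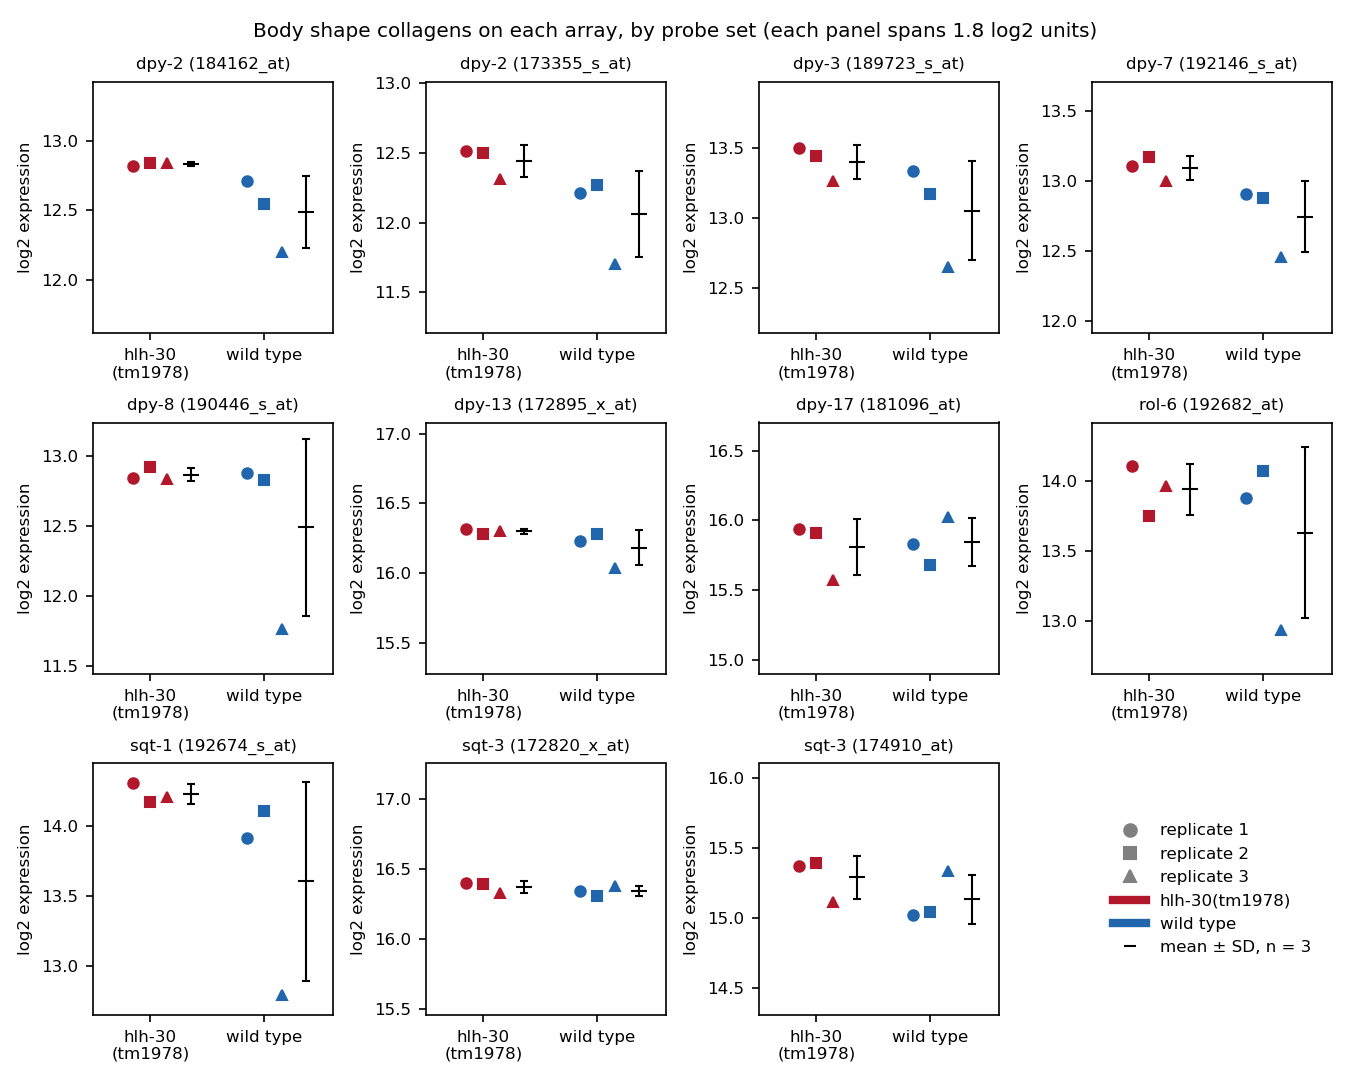
Log2 expression of each probe set of the 9 body shape collagens on the 3 hlh-30(tm1978) and the 3 wild-type arrays, with the mean and SD of each genotype (n = 3). Wild type 3, the blue triangle, is the lowest point for the furrow collagens, dpy-13, rol-6 and sqt-1, and the highest for dpy-17.

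The 4 furrow collagens measured shared nearly the same change, between 0.34 and 0.38 on the log2 scale, or 1.27- to 1.30-fold. DPY-7 is the collagen by which furrows are often stained. Its gene (192146_s_at, Entrez gene 181013) read 13.11, 13.17 and 13 on mutants 1, 2 and 3 and 12.90, 12.88 and 12.45 on wild types 1, 2 and 3. The lowest mutant array exceeded the highest wild-type array. The means were 13.09 ± 0.087 in the mutants and 12.74 ± 0.25 in wild type (SD, n = 3 each), a change of 0.35 (SE 0.14, 95% interval −0.020 to 0.71, limma adjusted p 0.585). Without wild type 3 the change was 0.20 (95% interval 0.010 to 0.39, limma adjusted p 0.438), so the mutants stayed above both remaining wild types by less than at first.

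A second furrow gene, dpy-2 (Entrez gene 174107), was read by a pair of probe sets that gave the same picture. At the brighter, 184162_at, the mutants read 12.82, 12.84 and 12.84 and the wild types 12.71, 12.54 and 12.21. The mutant arrays were almost identical, and the wild types spread downward. The means were 12.83 ± 0.014 and 12.49 ± 0.26 in mutants and wild type (SD, n = 3 each), a change of 0.34 (SE 0.14, 95% interval −0.014 to 0.70, limma adjusted p 0.576). At 173355_s_at the mutants read 12.51, 12.50 and 12.31 and the wild types 12.21, 12.27 and 11.70, again without overlap, with a change of 0.38 (SE 0.17, limma adjusted p 0.619). Without wild type 3 the change at the brighter probe set was 0.20 (95% interval 0.015 to 0.39, limma adjusted p 0.423).

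The remaining furrow collagens overlapped between genotypes. For dpy-3 (189723_s_at, Entrez gene 180529) the mutants read 13.50, 13.44 and 13.27 and the wild types 13.33, 13.17 and 12.65. Mutant 3 lay under wild type 1, and the change of 0.35 (SE 0.20, limma adjusted p 0.686) became 0.15 without wild type 3 (95% interval −0.14 to 0.44). For dpy-8 (190446_s_at, Entrez gene 180785) the mutants read 12.84, 12.92 and 12.84 and the wild types 12.88, 12.83 and 11.76. Here 5 arrays lay together and wild type 3 alone stood apart, by −1.09 from the mean of the other wild types. The change of 0.38 (SE 0.33, limma adjusted p 0.783) became 0.012 without that array, with a 95% interval from −0.13 to 0.15. The equal changes of the 4 genes over all arrays therefore had unequal makeup: dpy-2 and dpy-7 lay above the other wild types too, and dpy-8 did not.

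**Figure D2:**
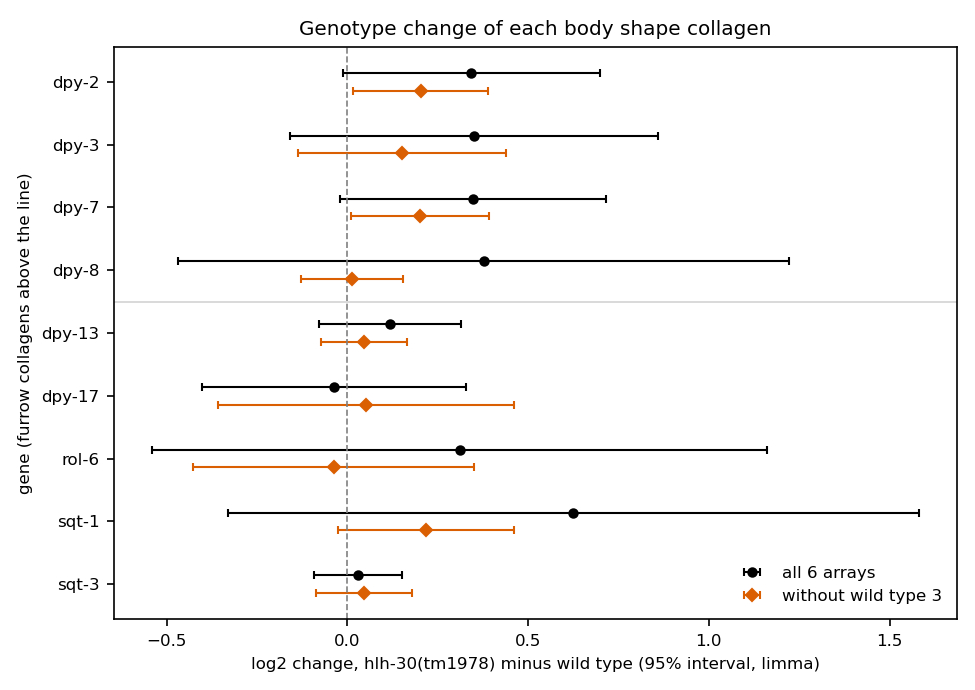
Log2 change of each gene, hlh-30(tm1978) minus wild type, with its 95% interval from limma, for all 6 arrays (black circles) and without wild type 3 (orange diamonds). The furrow collagens lie between 0.34 and 0.38 with all arrays and between 0.012 and 0.20 without wild type 3, and the interval of every gene spans 0 with all arrays.

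Among the other members the largest change was that of sqt-1 (192674_s_at, Entrez gene 174731). The mutants read 14.30, 14.17 and 14.21 and the wild types 13.91, 14.11 and 12.79. All mutants were above all wild types, though mutant 2 and wild type 2 differed little. The means were 14.23 ± 0.070 and 13.60 ± 0.71 in mutants and wild type (SD, n = 3 each), a change of 0.62, or 1.54-fold (SE 0.37, 95% interval −0.33 to 1.58, limma adjusted p 0.694). Wild type 3 lay −1.22 from the mean of the other wild types, and without it the change was 0.22 (95% interval −0.027 to 0.46).

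Its partner rol-6 (192682_at, Entrez gene 174397), whose dominant allele is a common marker of worm transformation, overlapped between genotypes. The mutants read 14.10, 13.75 and 13.96 and the wild types 13.88, 14.07 and 12.93. Wild type 3 was again far under the rest, by −1.05 from the other wild types. The change of 0.31 (SE 0.33, limma adjusted p 0.798) turned to −0.038 without that array (95% interval −0.43 to 0.35).

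The annulus collagen gene dpy-13 (172895_x_at, Entrez gene 177187) read 16.32, 16.28 and 16.30 on the mutants and 16.23, 16.28 and 16.04 on the wild types. The groups met at mutant 2 and wild type 2, and the change was 0.12 (SE 0.077, 95% interval −0.080 to 0.31, limma adjusted p 0.717), or 0.046 without wild type 3. Its values lay within 1 log2 unit of 16.95, the highest value on any array, and whether the probes were near saturation was not tested. The suffix _x_at marks probes that can also bind other transcripts, so in this large family the reading may include other collagens. The probe sets of dpy-3, dpy-7, dpy-8 and sqt-1 and the dimmer of dpy-2 end in _s_at. Whether they bind other transcripts was not tested.

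The DPY-31-dependent collagens did not share the low reading on wild type 3. For dpy-17 (181096_at, Entrez gene 175696) the mutants read 15.94, 15.91 and 15.58 and the wild types 15.83, 15.68 and 16.03. Wild type 3 was the highest array and mutant 3 the lowest. The means of 15.81 ± 0.20 in the mutants and 15.85 ± 0.17 in wild type (SD, n = 3 each) differed by −0.038 (SE 0.14, 95% interval −0.40 to 0.33, limma adjusted p 0.952). The sign turned in 5 of the 10 alternative fits that moved this value at all, among them the one without wild type 3 (0.051) and the one after median centring of the arrays (0.023).

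For sqt-3 (Entrez gene 179693) the brighter probe set, 172820_x_at, read 16.40, 16.39 and 16.33 on the mutants and 16.34, 16.31 and 16.38 on the wild types. All arrays lay within a narrow band close to the highest value on any array, and the change was 0.030 (SE 0.048, 95% interval −0.092 to 0.15, limma adjusted p 0.856), turning to −0.0053 after quantile normalization. The dimmer 174910_at, whose name marks no shared probes, read 15.37, 15.39 and 15.11 on the mutants and 15.02, 15.04 and 15.33 on the wild types. Mutants 1 and 2 lay with wild type 3, and mutant 3 with wild types 1 and 2, so the groups overlapped and the change was 0.16 (SE 0.13, limma adjusted p 0.758). On wild type 3 this probe set deviated from the other wild types by 0.30, and on mutant 3 by −0.26 from the other mutants, the same directions as dpy-17, at 0.27 and −0.35.

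Given as a description, with all points sharing the same 6 RNA samples and their array-wide scaling, the Pearson r between furrow collagens ran from 0.903 to 0.968 over 6 pairs. The highest r of any pair was 0.997, between dpy-13 and sqt-1. The furrow genes correlated with sqt-1 at 0.916 to 0.966 and with dpy-13 at 0.905 to 0.945. By contrast dpy-17 had an r of −0.258 to −0.536 with the furrow genes and of 0.834 with sqt-3. Without wild type 3 the r over 5 arrays was 0.400 to 0.829 between furrow collagens and 0.984 between dpy-13 and sqt-1. Over the same 5 arrays the furrow genes correlated with sqt-1 at −0.277 to 0.648 and with dpy-13 at −0.439 to 0.512. Both negative values were those of dpy-8. Between dpy-17 and the furrow genes the r was 0.273 to 0.852, above 0 where it had been below. For sqt-3 and the furrow genes it was −0.195 to 0.169 over 6 arrays and 0.523 to 0.984 without wild type 3.

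**Figure D3:**
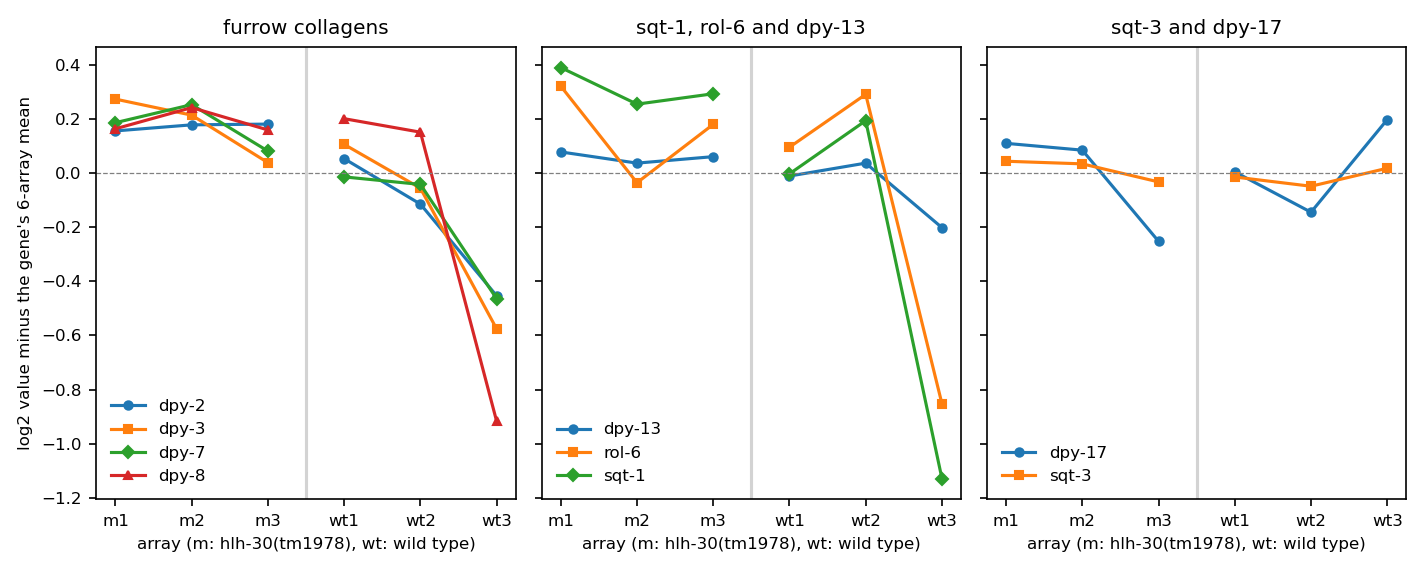
Log2 value of each gene minus its own mean over the 6 arrays, on mutant (m1 to m3) and wild-type (wt1 to wt3) arrays, with lines joining arrays of 1 genotype for reading only. The furrow collagens, sqt-1, rol-6 and dpy-13 drop on wild type 3, whereas dpy-17 is highest there and lowest on mutant 3.

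Wild type 3 lay below the mean of the other wild types for 7 of the 9 genes, against 56.2% of all genes. The median deviation was −0.44 over the 9 (−0.52 over the furrow collagens), beside −0.044 over all genes tested. A deviation of at least 0.5 downward was seen in 14.8% of all genes and in 4 of the 9, which were dpy-3, dpy-8, rol-6 and sqt-1. On that same array 11 of 12 muscle markers were at their highest. That array exceeded the mean of the other wild types for 8 of 9 neuron markers and 6 of 10 intestinal markers. The share of all genes was 38.1%. Early embryo markers lay below the other wild types for 10 of 10, with a median of −0.62. The part of any of these in the collagen values was not tested. The 7 epidermal markers deviated there by −1.25 to 0.48, with a median of −0.068, and the 5 seam cell markers by −0.11 to 0.59, with a median of 0.0048. Mutant 3 deviated from the other mutants by a median of −0.043 over the 9 genes, with −0.35 for dpy-17 the farthest from 0. Its early embryo markers lay above those of the other mutants by a median of 2.11, and their part in the collagen values was not tested.

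Most of the further cuticle collagens with names like those of the members were also low on wild type 3. Of 9 tested, 0 were called by limma in either direction and 0 had an unadjusted p under 0.05, with a median change of 0.37 that was 0.14 without wild type 3. On wild type 3, 6 of the 9 were at their lowest, as were 26.3% of all genes, with a median deviation of −0.58 from the other wild types. The 3 with the smallest p were lon-3, whose loss makes worms long, at 0.43 (SE 0.19, limma adjusted p 0.617), sqt-2 at 0.58 (SE 0.31) and dpy-5 at 0.37 (SE 0.22). As with dpy-17, dpy-14 was highest on wild type 3, by 0.36 above the other wild types. bli-2 did not pass the filter and bli-6 was not analysed here.

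**Figure D4:**
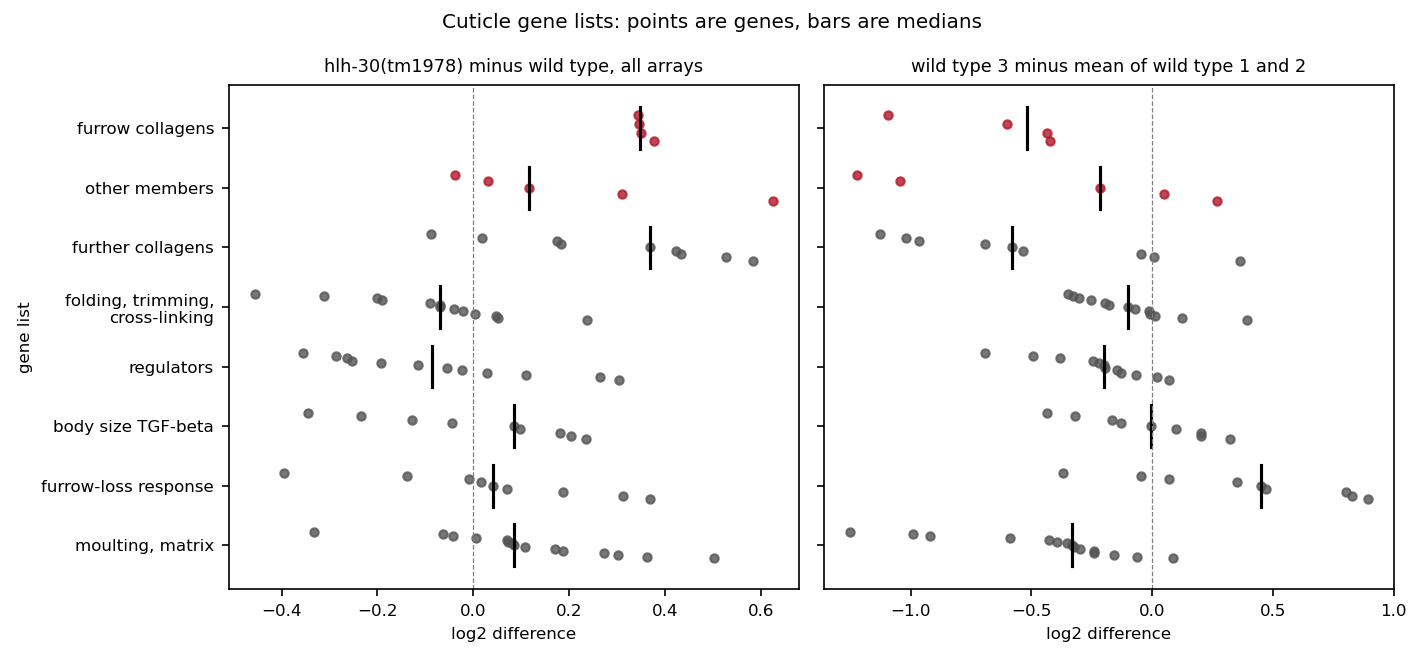
Log2 differences of the genes of each cuticle list, with points as genes and bars as medians, between genotypes on all arrays (left) and between wild type 3 and the mean of wild types 1 and 2 (right). The furrow collagens (medians 0.35 and −0.52) and the further collagens (0.37 and −0.58) are shown with the folding and trimming genes (−0.069 and −0.099), and wild type 3 enters both panels.

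For the enzymes that fold, trim and cross-link collagens, of 13 tested, 0 were called by limma, and the median change was −0.069. An unadjusted p under 0.05 was found for 1 of the 13, against 8.59% of all genes. That gene was mlt-7, a peroxidase that helps cross-link the cuticle. It averaged 9.24 ± 0.28 in the mutants and 9.70 ± 0.12 in wild type (SD, n = 3 each). The change was −0.46 (SE 0.16, limma adjusted p 0.489). The tetraspanin gene tsp-15, which works with the dual oxidase BLI-3, read −0.31 (SE 0.14), and bli-4, a convertase that trims procollagens, read 0.24 (SE 0.12). The DPY-31 protease gene itself read −0.19 (SE 0.16), and dpy-18, a prolyl hydroxylase subunit, −0.069 (SE 0.19). On wild type 3, 10 of the 13 lay below the other wild types, as did 56.2% of all genes, with a median of −0.099. On mutant 3 the median deviation from the other mutants was −0.32.

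Regulators of cuticle genes had a median change of −0.086 over 12 genes. None was called by limma, and the share of all genes lower in the mutant without overlap is not given here. Against 8.59% of all genes, 2 of the 12 had an unadjusted p under 0.05, with no overlap of the genotypes in either. They were myrf-2, a membrane-bound transcription factor of the moulting programme, at −0.35 (SE 0.084, limma adjusted p 0.276), and elt-1, the GATA factor that specifies epidermis, at −0.25 (SE 0.081, limma adjusted p 0.453). The epidermal factor gene lin-26 read −0.26 (SE 0.13). Of the TGF-beta pathway for body size, which acts in the epidermis, 9 genes were tested, 0 were called by limma and 0 had an unadjusted p under 0.05, with a median of 0.085. Its members with the smallest p were sma-9, a transcription cofactor, at −0.34 (SE 0.18), the receptor gene daf-4 at −0.23 (SE 0.13) and the receptor gene sma-6 at 0.23 (SE 0.15).

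Genes known to switch on when furrow collagens are lost were listed as well. Of 9 tested, 0 were called by limma and 0 had an unadjusted p under 0.05. The median change was 0.042, or 0.22 without wild type 3. Of the 11 listed, hmit-1.1 did not pass the filter and nlp-34 was not analysed here. The antimicrobial peptide gene nlp-30 read 0.37 (SE 0.15, limma adjusted p 0.579), cnc-2 read −0.39 (SE 0.27) and nlp-31 read 0.19 (SE 0.18). Each of these was read by an _x_at probe set, whose probes can also bind other transcripts. gpdh-1, which makes the osmolyte glycerol, read 6.66 on each mutant array and 6.66, 6.66 and 6.61 on wild types 1, 2 and 3. The detoxification gene gst-4 varied most between arrays, at 13.44, 13.47 and 11.43 on mutants 1, 2 and 3 and 12.02, 12.31 and 13.06 on wild types 1, 2 and 3. On mutant 3 the median deviation of this list from the other mutants was 0.075, and on wild type 3 it was 0.45 from the other wild types, with single genes between −0.37 and 0.89.

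Moulting and apical matrix genes had a median change of 0.086 over 15 genes, with 0 called by limma and 0 at an unadjusted p under 0.05. The median was −0.010 without wild type 3. On that array 14 of 15 lay below the other wild types, as did 56.2% of all genes, by a median of −0.33. At their lowest there were 9, as were 26.3% of all genes. The protease gene nas-36 read −0.33 (SE 0.20), the protease inhibitor gene mlt-11 read 0.30 (SE 0.19) and the matrix gene noah-1 read 0.19 (SE 0.12).

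The genes whose 6 array values were most like the mean of the 4 furrow collagens were F37H8.5 (Pearson r 0.997), smoc-1 (0.992), col-128 (0.991), F23H12.5 (0.990) and C05D12.1 (0.989). smoc-1 encodes a secreted protein of the body size TGF-beta pathway and col-128 another cuticle collagen. An r over 0.95 was reached by 95 of 9104 genes compared, or 1.04%. Without wild type 3 the r of these 5 genes was 0.861 to 0.967. For the mean of the other 5 members the closest were jud-4, tbck-1, ets-6, lbp-2 and F33G12.3, with r between 0.992 and 0.994, or 0.936 to 0.95 without wild type 3. All of these except lbp-2 held 1 value on 4 of the 6 arrays, so that their r rests on the other 2. The remaining gene, lbp-2, a fatty acid binding protein gene, read 12.99, 12.87 and 12.83 on mutants 1, 2 and 3 and 12.71, 12.83 and 12.28 on wild types 1, 2 and 3. With 6 arrays, such ranks describe these samples only.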

How the data were processed

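The values deposited by the authors are log2 expression per probe set. GCRMA and limma are named in the submitters' processing notes, without settings. After the 77 control probe sets were dropped, those reaching a log2 value of 4 on 3 or more of the 6 arrays were analysed (12060). Each gene took the brightest probe set annotated to it alone. Mutant minus wild type was estimated with lmFit and eBayes of limma 3.58.1 (R 4.3.3), and p-values were Benjamini-Hochberg adjusted across those 12060 probe sets. On simulated data of this size the fit recovered 46.9% of 2-fold and 78.5% of 4-fold changes, with 5.49% false calls. Recovery of changes under 2-fold, where every member lay, is not given. The named genes were the members, hlh-30, up to 3 genes of each cuticle list with the smallest p and the 5 genes most like each group of members. Others (dpy-14, dpy-31, dpy-18, gpdh-1, gst-4) were chosen after their values were seen. The members and lists were chosen with earlier results of these data known. Per the labels, replicates were biological, and precision is limited by having 3 arrays a genotype. List medians without wild type 3, and without both arrays numbered 3, were alternatives chosen after seeing the data. The other alternatives changed the filter, scaling, variance model, weights, block, arrays or probe sets used.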

Additional observations from a re-analysis of the deposited data

How the results depend on the processing

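No member was called under any of the 18 alternatives run, and the lowest limma adjusted p was 0.0877, for dpy-7 without wild type 3 and mutant 3 (change 0.25). Of 16 refits, 5 leave every fitted change as it was by construction, and of the 92 values of the 9 genes that moved in the other 11, 8 turned sign. For dpy-17 these were 0.023 after median centring, 0.15 with array quality weights, 0.051 without wild type 3 and 0.078 without mutant 3, within a range of −0.12 to 0.078 with 1 array left out, and 0.17 with both arrays removed. For rol-6 they were −0.038 without wild type 3, within a range of −0.038 to 0.53 with 1 array left out, and −0.050 without both, and for sqt-3 −0.0053 after quantile normalization. The cause was not tested. The furrow median was 0.18 to 0.47 with 1 array left out, lowest without wild type 3, and that of the other members 0.047 to 0.16. The median of the further collagens was 0.14 without wild type 3 and 0.074 without both. Over all genes, 1 was called higher and 12 lower. These counts were 0 and 1 with no filter, 2 and 17 after quantile normalization, 142 and 447 with array weights, 27 and 177 without both arrays numbered 3, 1 and 28 with probe sets averaged, 4 and 54 at an adjusted p under 0.1, 151 and 632 at an unadjusted p under 0.05, and 0 to 1 and 0 to 2 with 1 array left out. With the replicate number as a block they were 0 and 0. Same-numbered arrays did not deviate together: their deviations correlated at −0.41, −0.42 and −0.52, and 0 of 6 arrays correlated best with their own number. Whether same-numbered samples were prepared together was not tested.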
